A study of Mus musculus with 7 samples.

Results

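The stromal cells described here were those of the mouse mesenteric lymph node with abundant Ccl19 transcript, taken from a single-cell RNA sequencing series of the node at 5 ages after birth. They were selected on measured values: from cells in which 1000 to 4600 genes were detected and mitochondrial transcripts made up no more than 4.5%, those were taken that had no Pecam1, at least 1 Col1a2 and at least 10 Ccl19 transcripts (unique molecular identifiers, UMIs), fewer than 10 Il6 UMIs, and fewer than 2 of the genes Cxcl13, Madcam1, Tnfsf11 and Pthlh detected. 669 of 8935 stromal cells (no Pecam1, at least 1 Col1a2) met the rule, out of 13197 cells that passed the filters and 17692 deposited cells. The 8 genes of the rule are given below as a description, with no test, and every contrast of these cells with other cells rests on the same counts that chose them.

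The study followed how the non-endothelial stromal compartment of the node is built after birth. Cells were isolated from mesenteric lymph nodes (small intestinal and colon or caecum-draining) of BALB/c mice under specific pathogen free housing at day 0 (D0), D10, D24, D56 and D300, sorted as CD45-CD24- and profiled with a droplet-based kit that counts the 3′ ends of transcripts. No transgene, knockout or treatment was part of this experiment, so by the labels the ages differed by age alone. The paper's methods, however, place the D56 sequencing with previous work, apart from that of the other ages. At D56, age and experiment could therefore not be told apart, and this bears on every comparison that uses D56. The labels list 7 samples, but cell names carried the age only, so each age is 1 pool and no test between single ages was possible. How many animals went into a pool is not given in the sources used here. Xist, transcribed from the inactive X chromosome, was detected in 25% of the Ccl19-high cells at D10 and in 96.3 to 100% at the other ages, and Ddx3y, a Y-linked gene, in 25% at D10 and in none of the cells at the other ages. D10 therefore held cells of both sexes.

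Fibroblastic reticular cells are mesenchymal cells that spin and ensheathe the fibre network of lymph nodes. In the T cell zone they secrete CCL19 and CCL21, ligands of the receptor CCR7 that draw naive T cells and dendritic cells inward, together with IL-7, a survival factor of naive T cells. Grem1 encodes a secreted antagonist of bone morphogenetic proteins (BMPs) and marks reticular cells of this zone. The genes that the rule limits belong to neighbouring stromal cells: CXCL13 attracts B cells, MAdCAM-1 is an adhesion molecule, Tnfsf11 encodes RANKL, and IL-6 is an inflammatory cytokine. Position in the tissue was not measured here, so the name T-zone rests on transcripts alone.

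Under the rule, Ccl19-high cells had their lowest share at birth. From D0 through D10, D24 and D56 to D300, the order of ages used below, there were 54, 160, 80, 308 and 67. As a share of stromal cells this was 1.72% at birth (exact 95% interval 1.29 to 2.24). The share was 11.2% at D10 (9.59 to 12.9) and 8.02% at D24 (6.41 to 9.89). In the adult pools it was 12.6% at D56 (11.3 to 14) and 7.25% at D300 (5.66 to 9.12). The D0 interval lay below those of all later ages. Among the later ages, D10 overlapped with D24 and D56, and D24 with D300. These intervals cover counting error only and say nothing of the spread between animals. Before the limits on Il6, Cxcl13, Madcam1, Tnfsf11 and Pthlh, cells with 10 or more Ccl19 UMIs were 266 of 3144 stromal cells at D0. They were 344 of 1432 at D10, 102 of 997 at D24, 448 of 2438 at D56 and 85 of 924 at D300. At D0 the limits removed 212 of the 266. The separation of D0 from D300 ended with a limit of 20 Ccl19 UMIs, at which the share was 1.21% at D0 (0.857 to 1.66) and 1.84% at D300 (1.08 to 2.93). With a limit of 5 it was 2.04% at D0 and 17.3% at D300. The stromal cells that form the denominator differed between ages: markers of adjacent-tissue fibroblasts summed to 3152 CPM at D0 and 124 CPM at D300 in the stromal cells outside the rule, and their part in the shares was not tested.

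At birth most stromal cells rich in Ccl19 also carried organizer genes, the name used here for Cxcl13, Madcam1, Tnfsf11 and Pthlh. Stromal cells with 10 or more Ccl19 UMIs numbered 266, 344, 102, 448 and 85 from D0 to D300. The rule retained 20.3% of them at D0 (exact 95% interval 15.6 to 25.6) and 46.5, 78.4, 68.8 and 78.8% at the later ages. At D0 212 of the 266 had 2 or more organizer genes, against 184 of 344, 22 of 102, 105 of 448 and 11 of 85 at the later ages. The limit on Il6 removed no such cell before D56, and then 35 at D56 and 7 at D300. The bars of the plot of shares and fates show the same shift between D0 and D24.

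**Figure D1:**
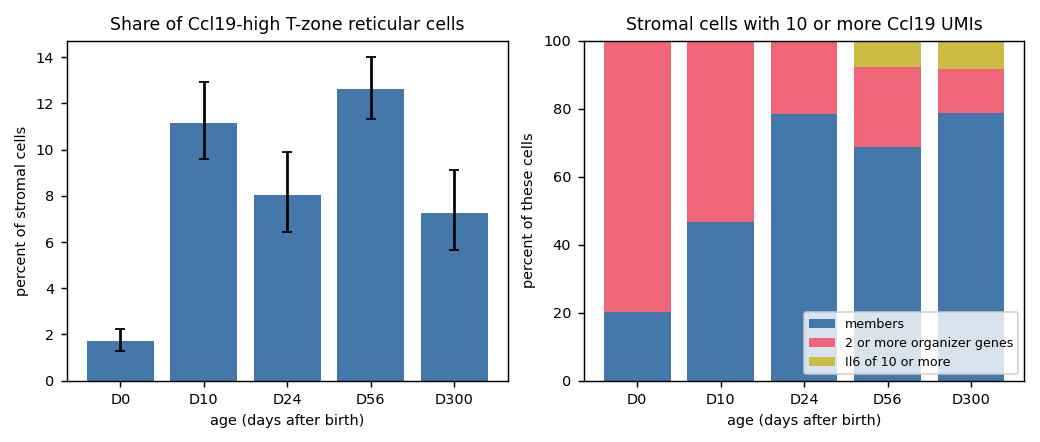
Left, Ccl19-high cells as a percent of stromal cells at each age, with bars for the exact 95% interval of counting error. Right, the cells with 10 or more Ccl19 UMIs at each age as a percent that met the rule, had 2 or more organizer genes or had 10 or more Il6 UMIs; the share that met the rule was 20.3% at D0 and 78.8% at D300.

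The boundary of the rule was not a gap in the data. Of the 669 cells, 129 had 10 to 12 Ccl19 UMIs, while 226 cells that met every other condition had 7 to 9. The median Ccl19 count of the selected cells was 29, 21, 25, 21 and 15 UMIs from D0 to D300, with a highest cell of 474 at D56. Exactly 1 organizer gene was detected in 382 of the 669 (57.1%), and at least 1 Il6 UMI in 165, of which 111 were at D56 and 36 at D300. The selected cells were deeper than the other stromal cells at every age, with median counts of 7215 to 8904.5 UMIs per cell against 4748 to 7446.

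The label was checked against Ccl21a, Il7 and Grem1, which the rule did not use. Ccl21a (chromosome 4, 42772860 to 42773993, minus strand, GRCm38) reached 11928, 45707, 72964, 76700 and 55391 CPM (counts scaled to a total of 1000000 UMIs per pool) from D0 to D300 in Ccl19-high cells, against 1185, 15295, 10300, 19642 and 20140 CPM in the other stromal cells. That is 10.1-, 2.99-, 7.08-, 3.90- and 2.75-fold higher in the same order. The transcript was present in 99.4 to 100% of Ccl19-high cells. It was also present in 47.6% of endothelial cells (Pecam1 detected, Col1a2 absent) at D0 and in 94.9 to 100% later, at 1180 to 4744 CPM, and lymphatic endothelium is a known source of CCL21. Free transcript in the droplets was not tested as a part of these shares.

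Il7 (chromosome 3, 7569994 to 7613760, minus strand) stood at 44.4, 261, 201, 141 and 133 CPM from D0 to D300, against 6.63, 59.5, 25.7, 35.7 and 49.9 CPM in other stromal cells. Grem1 (chromosome 2, 113746164 to 113758646, minus strand) stood at 167, 326, 487, 288 and 237 CPM in the same order, against 29.7, 136, 100, 85.0 and 86.4 CPM. All 3 genes were thus higher in Ccl19-high cells at each of the 5 ages, Il7 by 2.66- to 7.83-fold and Grem1 by 2.41- to 5.63-fold. With every cell thinned to 2000 UMIs, Il7 was detected in 5.56, 41.9, 23.8, 25 and 11.9% of Ccl19-high cells from D0 to D300 (unthinned 27.8, 64.4, 63.8, 45.8 and 35.8%) and in 3.16 to 4.76% of endothelial cells. The D0 value for Il7 was therefore near the endothelial level. Thinned Grem1 was detected in 20.9 to 52.5% of Ccl19-high cells and in at most 1.80% of endothelial cells. All 3 transcripts together were detected without thinning in 277 of the 669 cells (41.4%), from 18.5% at D0 to 60.0% at D24 and 20.9% at D300, and 1 cell had none of them.

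Of the supporting markers, Clu, a secreted chaperone, and Bst1, a surface ectoenzyme, were at least 2-fold higher in Ccl19-high cells at every age. Clu stood at 2596, 4120, 9501, 7849 and 7065 CPM from D0 to D300 against 542, 1794, 1468, 2491 and 2017, and Bst1 at 118, 109, 156, 274 and 216 CPM against 21.9, 53.9, 27.2, 89.3 and 81.3. Mfge8, which encodes a bridging protein for dying cells, was at 5926 to 8668 CPM against 1190 to 4056, and Vcam1, an integrin ligand, at 954 to 2169 CPM against 352 to 1363, and neither passed 2-fold at all ages. Pdpn, the general reticular cell glycoprotein (gp38), was at 147 to 184 CPM against 101 to 216 and did not separate the groups.

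**Figure D2:**
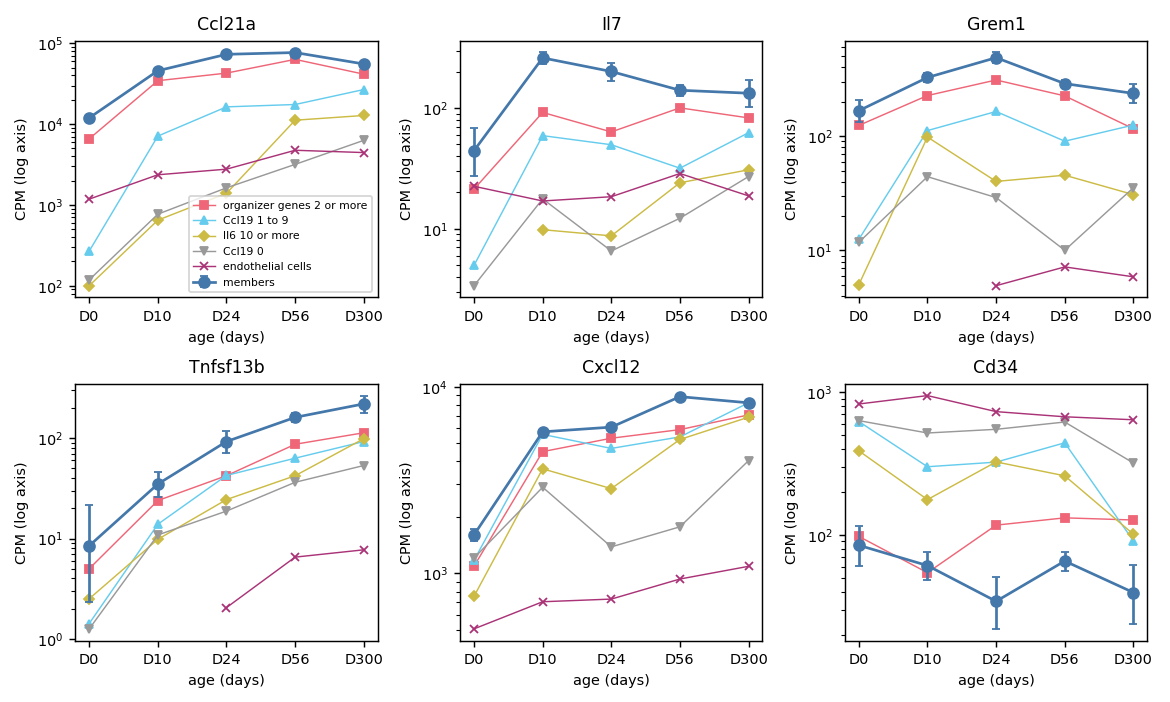
Levels in CPM (log axis) of Ccl21a, Il7, Grem1, Tnfsf13b, Cxcl12 and Cd34 at each age in Ccl19-high cells (members, with bars for the exact 95% counting interval), in stromal cells with 2 or more organizer genes, with 10 or more Il6 UMIs, with 1 to 9 Ccl19 UMIs or with none, and in endothelial cells, 1 pool of cells per point, with points at 0 left out. Ccl21a, Il7, Grem1 and Tnfsf13b lay above each plotted group at all 5 ages, and Cd34 lay below the cells without Ccl19. Tnfsf13b at D0 rested on 4 counts in Ccl19-high cells (interval 2.31 to 21.7 CPM).

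Promoter sequence was read for these genes from RefSeq (GRCm38.p6). The 250 bases before the start sites of Ccl21a and Grem1, shown because these genes led the check of the label, had different base composition: G and C made up 52.8% at Ccl21a and 72.0% at Grem1, against a median of 52.4% over all 32851 promoters (quartiles 45.2 and 61.2%). Each is written in the direction of transcription, chr4:42773992-42774241 on the minus strand for Ccl21a and chr2:113758649-113758898 on the minus strand for Grem1. Capitals would mark a match to GGGANTTCC, GGGGNTTCC (forms of the NF-kB element) or GAAANNGAA (a form of the interferon response element), searched on both strands, and there was none in either window.
Ccl21a: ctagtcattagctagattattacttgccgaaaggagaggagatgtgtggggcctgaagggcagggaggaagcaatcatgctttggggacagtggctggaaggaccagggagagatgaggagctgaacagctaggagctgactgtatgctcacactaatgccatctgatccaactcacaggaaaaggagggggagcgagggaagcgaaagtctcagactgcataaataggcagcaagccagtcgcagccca
Grem1: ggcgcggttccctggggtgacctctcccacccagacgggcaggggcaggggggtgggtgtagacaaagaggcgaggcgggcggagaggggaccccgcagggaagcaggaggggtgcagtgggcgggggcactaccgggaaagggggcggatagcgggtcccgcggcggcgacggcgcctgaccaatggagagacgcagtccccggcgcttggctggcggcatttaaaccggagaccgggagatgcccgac

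The letters GAAANNGAA occurred at Ccl19 and at Tnfsf13b, and in 8.56% of all 300-base promoters in the table, while GGGANTTCC occurred in 1.677% and GGGGNTTCC in 1.689%, without a match at either gene. The stretch at Ccl19 lies at chr4:42756555-42756583 on the minus strand, with the match 208 to 200 bases before the RefSeq start, at the upstream end of the longer GENCODE gene model (chromosome 4, 42754525 to 42756577). The stretch at Tnfsf13b (chromosome 8, 10006467 to 10039072) lies at chr8:10006607-10006635 on the plus strand, with the match 16 to 8 bases before 1 of its start sites. Capitals mark the match, which does not overlap another motif searched and is a description of letters only.
Ccl19: ttttgggacaGAAAGTGAAagctcaaggc
Tnfsf13b: tacaaaaactGAAAGTGAAatgcggaagg

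Across all genes, 40 of 5929 genes with enough signal were at least 2-fold higher in Ccl19-high cells than in other stromal cells at every age (0.675%), and 161 were at least 2-fold lower (2.72%). Of the 161, 54 had a pool without counts. With such a pool set to 3 counts, 126 were still at least 2-fold lower at every age. This floor lies below the upper end of the exact counting interval for a count of 0. How many would remain with a floor at that upper end was not tested. Because the rule chose the cells on the same counts, nothing is read from these shares. The genes with the largest smallest fold on the higher side were Thbs4, Gm2564, Prkcb, Slc7a11, Ccl21b.1, Stc2, Rapsn and Art4. Prkcb, a protein kinase C, stood at 10.6, 146, 187, 103 and 76.9 CPM from D0 to D300 against 1.58, 27.9, 20.6, 18.1 and 21.1. Stc2, a secreted glycoprotein, stood at 82.5, 65.4, 61.4, 65.2 and 33.2 CPM against 20.5, 17.7, 6.68, 18.7 and 3.05. Thbs4, a matricellular thrombospondin, was highest at D24 with 82.8 CPM and lowest at D300 with 6.23. Rapsn, known as the clustering protein of acetylcholine receptors, was at 21.7 to 30.0 CPM at all ages against 2.81 to 7.54.

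Gm2564 and Ccl21b.1 need a limit beside them. Ccl21b.1 carries the name of a Ccl21 copy, while the sources used here do not give the family of the gene model Gm2564. Ccl21a has near-identical copies, so reads may have been divided among them. The same holds for Ccl19, which has near-identical copies and set the choice of cells: Ccl19 held 89431 counts over all deposited cells and the gene model Ccl19.1 none, and how reads shared by copies were counted could not be checked. Over the same cells Ccl21a held 1259500 counts, Ccl21b.1 548, and Ccl21b, Ccl21c and Ccl21c.1 none. Gm2564 was at 521 CPM at D56 and at 14.5 to 44.4 CPM at the other ages in Ccl19-high cells, and the other stromal cells shared the higher level at D56 (102 CPM against 1.89 to 4.52).

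The genes that were lower in Ccl19-high cells included those of CD34-positive stroma and of mesothelium, and the 8 named by the rule, which ranks by the smallest difference over pools with counts, were Ebf2, Aldh1a2, Ackr3, Agtr2, Prss35, Upk3b, Smpd3 and Krt8. Each of the 8 had at least 1 pool without counts, so their order is not known, and with such pools at 3 counts Ebf2 and Ackr3 alone of them remained at least 2-fold lower at every age. All 9 genes of the CD34 stromal list (Cd34, Pi16, Dpp4, Cd248, Ackr3, Dpep1, Ly6c1, Aldh1a2 and Gdf10) and the 4 of 5 mesothelial genes with enough signal had levels at least 2-fold lower at every age, and 8 of the 9 (without Aldh1a2) and 2 of the 4 (without Msln and Upk3b) still did with pools at 0 set to 3 counts. Cd34, a sialomucin of progenitor stroma and endothelium, was at 84.6, 61.0, 34.3, 65.6 and 39.5 CPM from D0 to D300 against 541, 268, 418, 421 and 166. Ackr3, a scavenging receptor for CXCL12, was at 0, 2.23, 8.56, 24.5 and 6.23 CPM against 46.2, 43.4, 197, 283 and 101. The transcription factor Ebf2 was at 0 to 6.32 CPM against 26.9 to 93.9, and Tcf21 at 0 to 15.8 CPM against 45.5 to 107. Upk3b, a mesothelial uroplakin, was at 0 to 1.98 CPM against 11.5 to 116.

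Among 15 ligands of the T zone with enough signal, 3 were at least 2-fold higher at every age, namely Ccl21a, Il7 and Tnfsf13b. Tnfsf13b encodes BAFF, a survival factor of B cells. It stood at 8.46, 34.9, 92.8, 162 and 220 CPM from D0 to D300 against 1.92, 16.7, 28.9, 57.9 and 82.9 in other stromal cells. Il33, an alarmin, was at 509 to 749 CPM against 216 to 439, and the CCR2 ligand Ccl2 at 436 to 3249 CPM against 833 to 3605.

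In the BMP list of 18 genes with enough signal, Grem1 was the 1 gene that was higher, and Gdf10, a BMP-related ligand, and Id4, an inhibitor of helix-loop-helix factors, were lower. Of 41 genes of reticular fibre and matrix none was higher and 9 were lower, namely Col5a3, Col15a1, Fbn1, Tnxb, Sparcl1, Nid1, Lama2, Hspg2 and Lox. Sparcl1 was at 20 to 76.2 CPM against 320 to 838, and the microfibril gene Fbn1 at 27.0 to 79.9 CPM against 82.2 to 626. The fibrillar collagen Col3a1 was at 3082, 5273, 2897, 1262 and 584 CPM against 8974, 10575, 9349, 2627 and 473, with the order reversed at D300.

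Surface and defence genes divided as follows. Of 13 adhesion and surface genes, Bst1 and the desmosomal cadherins Dsc3 and Dsg2 were higher and Cd34 was lower. Dsc3 was at 271, 328, 307, 295 and 118 CPM from D0 to D300 against 44.2, 131, 50.2, 75.7 and 29.0. Of 16 genes of complement and serpins, 4 were higher (Clu, Serpina1b, Serpina1d and Serpina10), and Serpina1b and Serpina1d are near-identical paralogs whose reads may be divided. No gene passed 2-fold in either direction among 17 of the lymphotoxin and NF-kB pathway, 4 of the Notch pathway, 13 contractile genes, 15 of antigen presentation or 8 of the cell cycle. Rtp4 was the 1 lower gene among 19 of the interferon response, Ebf2 and Tcf21 were the lower ones among 27 transcription factors, and Ptgis and Aldh1a1 were lower among 10 genes that restrain T cells, beside Aldh1a2, whose pools at 0 leave its difference undecided at some ages.

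Marker levels at D56 were graded along Ccl19 on both sides of the limit, while Ccl21a did not rise from bin to bin at D0 and D24. At D56 Ccl21a went from 3173 CPM in cells without Ccl19 through 7942 with 1 to 2 UMIs, 23194 with 3 to 5, 44176 with 6 to 9, 51424 with 10 to 14 and 66398 with 15 to 24, up to 96794 with 25 or more. Over the same bins Grem1 went from 10.0 to 358 CPM, Clu from 472 to 11014 and Cd34 from 619 to 45.9. At D0 the cells with 1 to 2 Ccl19 UMIs had 122 CPM of Ccl21a, close to the 118 CPM of cells without Ccl19. The 34 cells with 3 to 5 UMIs had 848 CPM and the 7 cells with 6 to 9 had 15215 CPM, above the 9538, 10067 and 13446 CPM of the bins of 10 to 14, 15 to 24 and 25 or more. Il7 at D0 was likewise highest with 6 to 9 UMIs, at 150 CPM against 57.0, 45.7 and 40.5 CPM in the bins above the limit, and Grem1 was highest with 10 to 14 UMIs. At D24 Ccl21a was at 48552 CPM with 6 to 9 UMIs and 40364 CPM with 10 to 14.

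Cxcl12, a chemokine for lymphocytes and plasma cells, had another shape along the same axis. At D56 it was at 1778 CPM without Ccl19, 10174 with 10 to 14 UMIs and 7540 with 25 or more, and the highest bin was below the bin of 6 to 9 UMIs at every age, although the latter held 7 cells at D0 and the former 9 cells at D300. Depth differed along the bins, with a median of 5631.5 UMIs per cell without Ccl19 and 8691 in the highest bin at D56, and its part in these gradients was not tested. The cells of a bin share their library, so the gradients are given with no test.

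**Figure D3:**
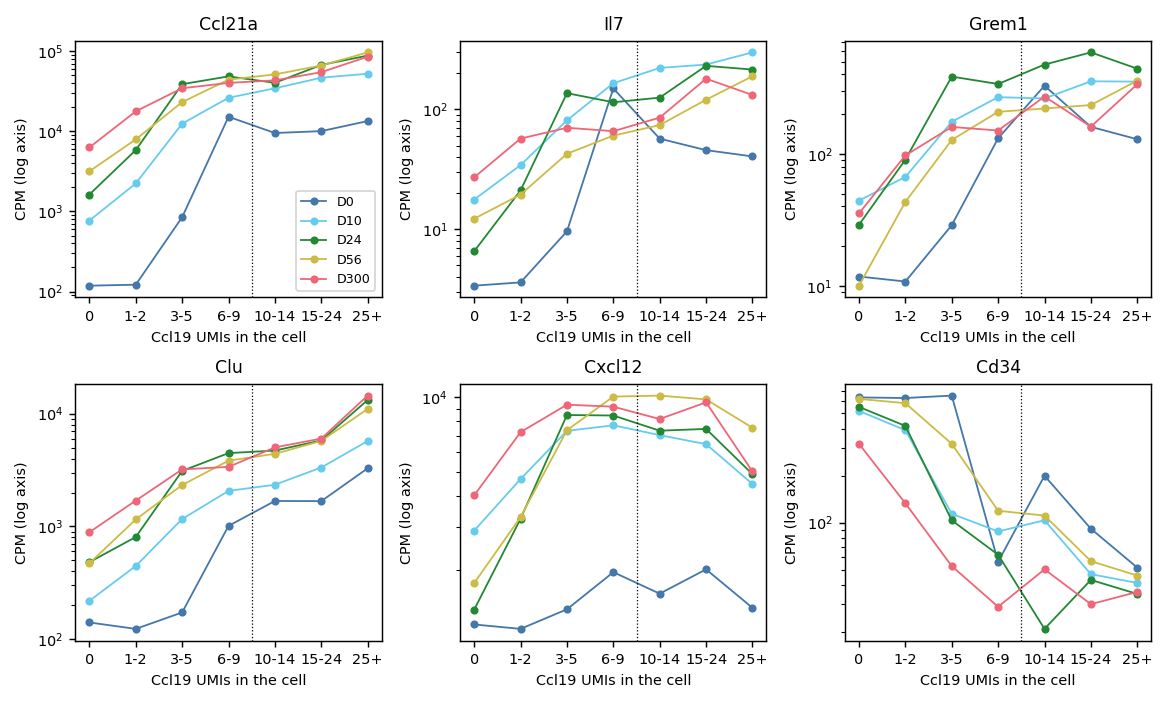
Levels in CPM (log axis) of Ccl21a, Il7, Grem1, Clu, Cxcl12 and Cd34 in stromal cells binned by their Ccl19 UMIs, 1 line per age, each point the pooled cells of a bin. The dotted line is the limit of 10 Ccl19 UMIs, and Ccl21a at D56 was 44176 CPM in the bin below it and 51424 CPM in the bin above it.

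Cells with 1 to 9 Ccl19 UMIs that met the other conditions were the nearest on the Ccl19 axis. Against them, Ccl19-high cells had 40 of 5912 genes at least 2-fold higher at every age (0.677%) and 114 lower (1.93%, of which 90 remained with pools at 0 set to 3 counts). Ccl21a was 44.4-, 6.43-, 4.47-, 4.39- and 2.07-fold higher from D0 to D300. Ccl21a in the cells with 1 to 9 UMIs stood at 268, 7108, 16330, 17465 and 26741 CPM from D0 to D300.

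Cells with 2 or more organizer genes were the most like them. None of 5635 genes was at least 2-fold higher in Ccl19-high cells at every age (0%), and 4 were lower (0.071%), namely Stc1, Ackr3, Anxa3 and Rbp4, of which Stc1 and Ackr3 had pools at 0 and did not pass with 3 counts there. Ccl21a stood at 6573, 34413, 42705, 63165 and 41437 CPM in the organizer group from D0 to D300, and Ccl19-high cells had 1.81-, 1.33-, 1.71-, 1.21- and 1.34-fold more. Il7 was 2.08-, 2.83-, 3.17-, 1.40- and 1.60-fold higher and Tnfsf13b 1.69-, 1.46-, 2.19-, 1.86- and 1.94-fold higher in the same order. These 3 genes and Grem1 (1.28- to 2.04-fold) lay on the side of the Ccl19-high cells at each age, without passing 2-fold at all of them. Tnfsf13b at D0 rested on 4 counts in Ccl19-high cells, with a counting interval of 2.31 to 21.7 CPM. Against stromal cells with 10 or more Il6 UMIs, 74 of 5877 genes were higher (1.26%) and 129 lower (2.19%), or 47 and 117 of these with pools at 0 set to 3 counts, and Ccl21a was 119-fold higher at D0 and 4.33-fold at D300.

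The markers changed with age in different ways within the Ccl19-high cells. The reference age used here, D56, is the one whose sequencing the paper places with previous work. Relative to D56, Ccl21a was 6.43-fold lower at D0 (exact 95% interval 6.26 to 6.60), and 1.68-, 1.05- and 1.38-fold lower at D10, D24 and D300. Il7 was 3.17-fold lower at D0 (2.04 to 5.18), 1.86-fold higher at D10 and 1.43-fold higher at D24. Grem1 was 1.73-fold lower at D0 and 1.69-fold higher at D24, and its D10 level was 1.13 times that of D56, a direction that turned when the pools were scaled by trimmed means (TMM), at 0.948 times. The 3 markers had their lowest value at D0, although the counting intervals of Grem1 at D0 and D300 (132 to 208 and 195 to 284 CPM) overlapped. The highest level was at D10 for Il7, D24 for Grem1 and D56 for Ccl21a, and the counting intervals of Il7 at D10 and D24 (1.60 to 2.16 and 1.17 to 1.74 times D56) overlapped.

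A slope over the 5 ages, on log2(day + 1), asked which genes rose or fell steadily. It is given as the fitted log2 difference between D300 and D0. In Ccl19-high cells 128 of 8706 genes rose (1.47%) and 79 fell (0.907%) by the edgeR quasi-likelihood test with Benjamini-Hochberg adjustment. Before adjustment 1651 genes had p under 0.05. The median fitted change over all genes tested was 0.03. Each p-value tests the slope against 0, judged by the scatter of the 5 pools about the fitted line, and does not measure the spread between animals. Which genes were called depended on single ages: without D10 16 rose and 10 fell, without D56 14 rose and 6 fell, and without D300 63 rose and 24 fell. Without D0 217 rose and 66 fell, but 64 of these rises and 20 of these falls were among the 128 and 79 genes called over all ages. The choice of cells mattered too: 36 rose and 22 fell without cells that had Cdh5, Ptprc or Rgs5 UMIs. With a limit of 20 Ccl19 UMIs 66 rose and 23 fell. Of 45 called genes named by the rules stated under processing, 5 stayed called without any single age (Tnfsf13b, Eln, Glycam1, Ltc4s and Itm2a), but all 5 lost their call when D0, D10 and D24 were set against D56 and D300 in place of the slope. Dlk1 and H19 stayed called in the 3 such fits in which they had enough counts, and 38 were lost in at least 1. Ccl21a (+2.88, SE 0.89, edgeR adjusted p = 0.135), Il7 (+1.29, adjusted p = 0.507) and Grem1 (+0.89, adjusted p = 0.504) did not pass.

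Among 18 T-zone ligands tested for the slope, 3 rose and none fell, where 1.47% of all genes tested rose and 0.907% fell. Tnfsf13b had the CPM levels given above, each age above the one before, with a fitted change of +5.18 (SE 0.66, edgeR adjusted p = 0.0198). With cells thinned to 2000 UMIs, it was detected in 3.70, 5, 15, 27.6 and 31.3% of Ccl19-high cells from D0 to D300 (unthinned 7.41, 23.8, 45.0, 62.7 and 73.1%), and in at most 1.33% of endothelial cells. Cxcl12 stood at 1610, 5736, 6077, 8850 and 8203 CPM (+2.83, adjusted p = 0.0479, lost without D0, D10, D24 or D56). Flt3l, a growth factor for dendritic cell precursors, stood at 23.3, 69.1, 67.1, 138 and 123 CPM (+2.87, adjusted p = 0.0420, lost without D0, D10 or D56). Cxcl9, an interferon-induced chemokine named here after its values were seen, was at 19, 14.9, 58.5, 73.5 and 112 CPM against 13.8, 23.8, 12.8, 15.7 and 9.84 in other stromal cells, and its slope did not pass (+3.64, adjusted p = 0.0517).

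The 8 largest rises among genes with a mean of at least 20 CPM were those of Mmp3, Inmt, Glycam1, Fgf7, Ccl9, Ltc4s, Scara5 and Frzb. Mmp3, the matrix protease stromelysin, was at 0, 5.95, 38.5, 341 and 573 CPM from D0 to D300 (+11.26, edgeR adjusted p = 0.0331, lost without D10). Ltc4s, leukotriene C4 synthase, was at 2.12, 33.5, 106, 201 and 326 CPM (+6.61, adjusted p = 0.0186). Ccl9, a myeloid chemokine, was at 0, 7.44, 32.8, 88.9 and 114 CPM, and Fgf7, a growth factor for epithelia, at 4.23, 2.23, 14.3, 44.3 and 89.3 CPM. Fitted changes of genes with a pool at 0 depend on the prior count of the fit and are not bounds.

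Glycam1 is a mucin of high endothelial venules, and its rise needs its levels elsewhere beside it. In Ccl19-high cells it was at 6.35, 43.9, 231, 334 and 760 CPM (+7.22, SE 0.83, edgeR adjusted p = 0.0145). In other stromal cells it was at 19.7, 44.2, 235, 440 and 664 CPM, and in endothelial cells at 613, 1479, 6495, 5677 and 13744 CPM. From D0 to D300 the level rose at each step in Ccl19-high cells and in other stromal cells, while in endothelial cells it was lower at D56 than at D24. The part of free transcript was not tested.

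Some genes of antigen presentation and complement rose as well. Of 17 antigen presentation genes tested for the slope 5 rose and none fell, namely H2-T23, H2-D1, Cd74, H2-K1 and H2-Ab1. Over all genes tested 1.47% rose and 0.907% fell. H2-T23, a nonclassical class I gene (Qa-1), went from 63.5 through 108, 203 and 266 to 405 CPM (+3.21, edgeR adjusted p = 0.0198, lost without D300), and Cd74, the class II invariant chain, from 138 through 354, 588 and 572 to 804 CPM (+2.94, adjusted p = 0.0249, lost without D0, D10 or D56). The call of H2-D1 was lost without D0, D10 or D56, and that of H2-K1 without D0, D10, D56 or D300. Leukocyte markers summed to 4.46 to 16.9 CPM in Ccl19-high cells, with Ptprc (CD45) in 1 of 669 cells. Of 16 genes of complement and serpins 5 rose, Cfb, C3, Serping1 and C1s1 among them. Cfb, complement factor B, was at 25.4, 31.2, 72.8, 254 and 341 CPM (+4.97, adjusted p = 0.0368, lost without D10, D56 or D300). C3 was at 1276, 2505, 3659, 4944 and 4387 CPM (+2.38, adjusted p = 0.0480, lost without D0, D10, D24 or D56). The call of Serping1 was lost without D0, D10 or D56. Other stromal cells were higher at D300 than at D0 as well, from 434 to 7130 CPM for H2-D1, 32.2 to 417 for H2-T23 and 270 to 3081 for C3. The test of the slope difference, described below, did not call H2-D1 (-1.53, edgeR adjusted p = 0.0521), H2-T23 or C3 (-1.79, adjusted p = 0.0844).

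Of 21 interferon-response genes tested, Irf7 and Usp18 rose, and of 26 transcription factors Ddit3 and Klf9 rose. The share that rose over all genes tested was 1.47%. Gdf10 was the 1 riser of 19 BMP genes, from 8.46 to 54.0 CPM, while staying 3.77- to 26.7-fold below the other stromal cells. Clec2d, a ligand of a natural killer cell receptor, rose among 13 surface genes from 33.9 to 106 CPM. The calls of these 6 genes were lost without D10, without D56 or without D300. No gene passed among 19 of the lymphotoxin and NF-kB pathway, 9 of the Notch pathway, 12 contractile genes or 9 that restrain T cells. None of 21 dissociation and heat-shock genes passed either, though their levels varied between pools, with Hspa1a at 6463, 2174, 2816, 9950 and 6032 CPM and Fos at 3482, 1039, 1173, 3598 and 7576 CPM. Their part in the age differences was not tested.

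Most of the imprinted and fetal growth genes fell, as did a minority of the cell-cycle and matrix genes. Of 13 imprinted and fetal growth genes tested 8 fell, namely Dlk1, H19, Igf2, Meg3, Mest, Peg3, Plagl1 and Nnat. The share that fell over all genes tested was 0.907%. Dlk1, a membrane protein of immature mesenchyme, was at 1176, 85.5, 2.85, 0.395 and 0 CPM from D0 to D300 (-12.62, edgeR adjusted p = 0.00938), and H19, an imprinted noncoding transcript, at 493, 35.7, 2.85, 0 and 0 CPM (-11.51, adjusted p = 0.00646). Itm2a, a membrane protein of developing mesenchyme, was at 1227, 209, 95.6, 47.4 and 29.1 CPM (-5.56, SE 0.44, adjusted p = 0.00615). Of 14 cell-cycle genes 4 fell, namely Birc5, Mcm5, Stmn1 and Tyms. Tk1, thymidine kinase, fell from 74.0 to 2.08 CPM.

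Of 40 matrix genes tested for the slope 4 fell and none rose, where 0.907% of all genes tested fell and 1.47% rose. Eln, elastin, was at 516, 286, 166, 75.9 and 51.9 CPM (-3.21, SE 0.40, edgeR adjusted p = 0.0188). Col1a1, the main fibrillar collagen chain, was at 3121, 3099, 1517, 747 and 382 CPM (-2.97, adjusted p = 0.0488, lost without D10, D24, D56 or D300). The crosslinking enzyme Lox went from 63.5 to 6.23 CPM and Col14a1 from 281 to 66.5 CPM. Elastin was the 1 matrix gene of these that stayed called without any single age.

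**Figure D4:**
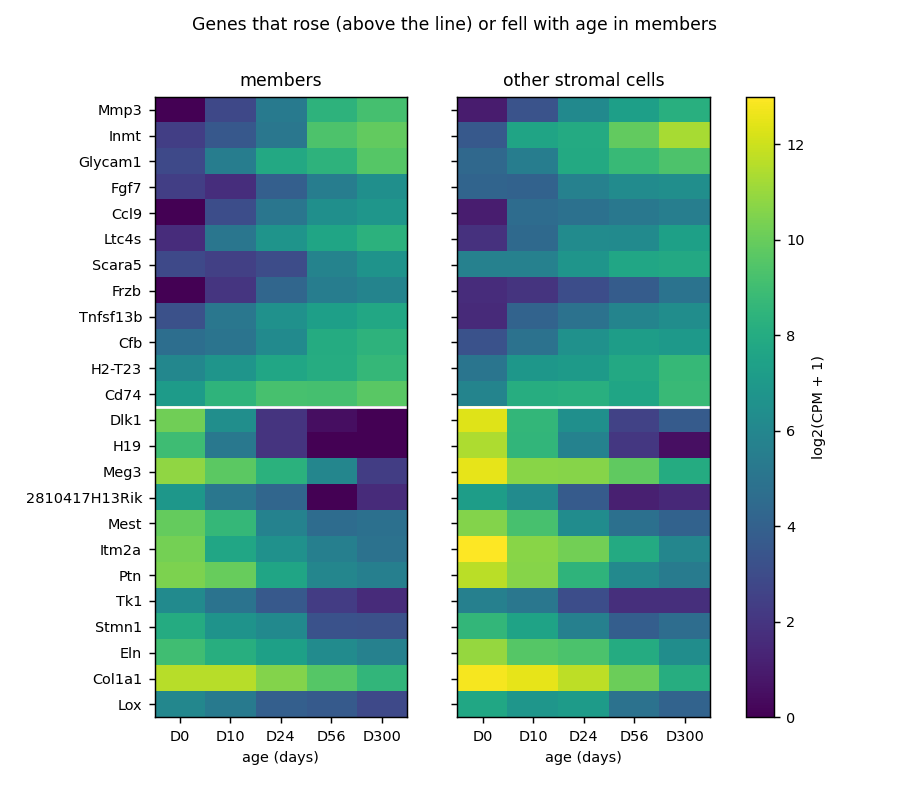
Levels as log2(CPM + 1) (colour) of 12 genes that rose with age, above the white line, and 12 that fell, below it, in Ccl19-high cells (members, left) and other stromal cells (right) at each age. Most rows change in the same direction in both panels, as with Tnfsf13b (8.46 to 220 CPM on the left, 1.92 to 82.9 on the right).

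Whether these changes differed from those of other stromal cells was tested as the difference of the slopes, with age as a block over 10 pools. It was positive for 12 of 13239 genes (0.0906%) and negative for 7 (0.0529%) by the same edgeR test and adjustment. Before adjustment 1071 genes had p under 0.05. The counts were 35 and 57 without D10, 30 and 38 without D24 and 32 and 12 without D300. Without D0 12 genes were positive and 2 negative, of which 1, Igfbp2, was among the genes called over all ages. Dpt was the 1 gene called in both tests. The difference for Tnfsf13b was -0.23 (edgeR adjusted p = 0.978), for Eln 0.72 (adjusted p = 0.701) and for Cxcl12 -0.04 (adjusted p = 1), so no difference from the other stromal cells was detected for them, which does not show that the slopes were equal.

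Igfbp2, a secreted binding protein of insulin-like growth factors, gave the clearest difference. It was at 12.7, 41.6, 84.2, 117 and 51.9 CPM in Ccl19-high cells from D0 to D300 and at 64.8, 38.8, 39.2, 34.8 and 2.11 CPM in the others, so the order of the groups turned after D0. The difference of the fitted changes was +6.45 (SE 0.56, edgeR adjusted p = 0.000192), and it stayed called without any single age, while DESeq2 gave it no adjusted p. Dpt, a dermatopontin of the matrix, went from 93.1 through 370, 706 and 885 to 713 CPM against 674, 688, 1195, 1120 and 734 (+2.58, adjusted p = 0.0188, lost without D0).

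On the negative side, Fn1, fibronectin, was at 827, 1070, 1052, 388 and 104 CPM in Ccl19-high cells against 357, 750, 1264, 908 and 221 (-2.82, edgeR adjusted p = 0.00990). The complement gene C4b was at 322, 610, 939, 854 and 762 CPM against 43.2, 313, 360, 478 and 589 (-2.50, adjusted p = 0.0188). Tnfaip3, which restrains NF-kB signalling, was at 193, 69.9, 61.4, 101 and 110 CPM against 50.9, 51.8, 58.8, 87.4 and 126 (-2.21, adjusted p = 0.0278). Each of these 3 calls was lost without D0, the age with 54 Ccl19-high cells. At D0 all 3 genes were higher in the Ccl19-high cells, and at D300 Fn1 and Tnfaip3 were lower.

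**Figure D5:**
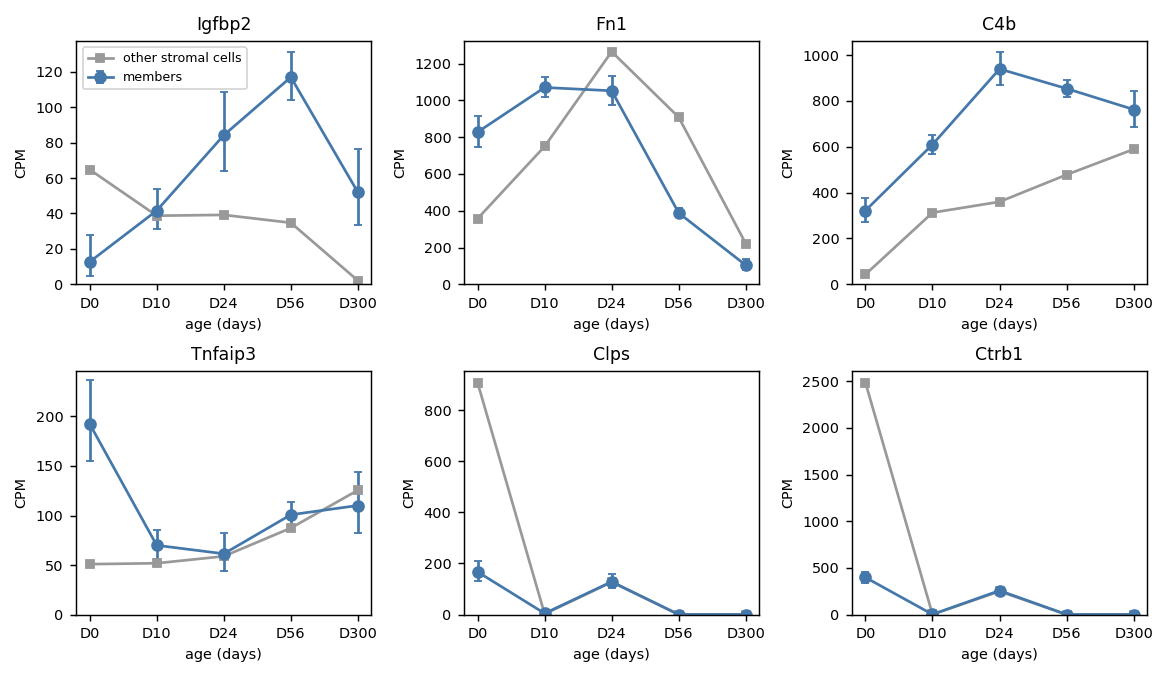
Levels in CPM (linear axis from 0) at each age of Igfbp2, Fn1, C4b, Tnfaip3, Clps and Ctrb1, whose fitted change with age differed between Ccl19-high cells and other stromal cells, 1 pool of cells per point, with bars for the exact 95% counting interval in Ccl19-high cells (members). Igfbp2 crossed from below the other stromal cells at D0 (12.7 against 64.8 CPM) to above them at D300 (51.9 against 2.11 CPM), and Fn1 crossed the other way.

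Transcripts of other cells moved with some of these results. Pancreatic acinar transcripts summed to 935 CPM at D0 and 1088 at D24 in Ccl19-high cells, 7.44 at D10 and 0 at D56 and D300, against 5578, 1108, 10.9, 0.659 and 0.234 CPM in the others, and 5 acinar genes were among the 12 positive differences. Endothelial markers summed to 60.9 to 91.4 CPM against 96.8 to 151. Perivascular markers summed to 292, 509, 400, 550 and 430 CPM in Ccl19-high cells from D0 to D300 against 289, 486, 195, 231 and 299 CPM. They were thus higher at D24, D56 and D300 and close to those of the others at D0 and D10. Of the 7 perivascular markers, Abcc9 rose with age (+2.08, edgeR adjusted p = 0.0378), and Rgs5 was at 52.9, 184, 198, 308 and 204 CPM against 118, 159, 64.9, 70.8 and 64.9, lower at D0 and higher at the later ages. Rgs5 was detected in 25.9 to 45.6% of Ccl19-high cells and in 10.1 to 33.3% of the others. Markers of adjacent-tissue fibroblasts summed to 863, 1257, 517, 185 and 99.7 CPM in Ccl19-high cells and to 3152, 1192, 813, 279 and 124 CPM in the others, and so were lower at D24, D56 and D300 than at D0, as were the imprinted and matrix genes named above. Of the 6 markers Sfrp1 fell (-2.23, edgeR adjusted p = 0.0412). Without cells that had Cdh5, Ptprc or Rgs5 UMIs 36 genes rose and 22 fell by the slope, against 128 and 79 with them. The part of other cells in the results was not otherwise tested.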

How the data were processed

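Cells sorted as CD45-CD24- from mesenteric lymph nodes at 5 ages were measured by droplet 3′ RNA sequencing. Values are counts (UMIs per gene and cell) as deposited by the authors in 1 matrix of 17692 cells and 27998 genes. The submitters' processing notes name Cell Ranger 2.0.0, STAR, Seurat 2.3.3 and mm10. Cell names gave the age but not the library, so the 7 labelled samples formed 5 pools, and 0 pairs of identical cells were found. The spread between animals was not measured.

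The cells, gene lists and tests were chosen with earlier results of these data known. Levels are CPM of counts summed per age, with the 8 genes of the rule left out of the totals, which ranged from 476948 to 2546818 UMIs per age over Ccl19-high cells before that. Counting intervals are exact at 95% (Clopper-Pearson for shares, conditional binomial for ratios) and cover counting error only. A level difference was counted when it was at least 2-fold in 5 of 5 ages, a pool at 0 counting as lower, among genes with a mean of at least 20 CPM in either group. Slopes on log2(day + 1) were fitted with edgeR 4.0.16 (quasi-likelihood, TMM, R 4.3.3) on genes with at least 10 counts in at least 2 ages, tested on simulated data, and SEs are the fitted change divided by the square root of the test's F. P-values were Benjamini-Hochberg adjusted over all genes tested at 0.05. The difference of slopes used member status by age with age as a block. DESeq2 1.42.0 was an alternative, as were other Ccl19 limits (5 and 20), other scalings and filters, thinning of cells to 2000 UMIs, and leaving out each age. No doublet caller was run, and cells with Cdh5, Ptprc or Rgs5 UMIs were left out as an alternative. Python 3.11.15, numpy 2.4.6, pandas 2.3.3, scipy 1.17.1 and matplotlib 3.10.9 were used.

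Named genes were the markers and genes of the rule, up to 4 genes per list (called by slope, then past the fold, then by level), the 8 largest rises and falls, the 8 highest and lowest genes against other stromal cells, and up to 6 genes per direction of the slope difference. Members of short counts, supporting markers and Col3a1, Il33, Ccl2, Cxcl9 and Dpt were named after their values were seen. Some genes that the rule takes are not reported here. Gene positions are from GENCODE vM21 (GRCm38) and promoters from RefSeq GRCm38.p6, a table that held no entry used here for Il7.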

Additional observations from a re-analysis of the deposited data

Results flagged for a closer look

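The change with age differed between Ccl19-high cells and other stromal cells by a test of the difference itself (edgeR quasi-likelihood, Benjamini-Hochberg adjusted) for the genes that follow, each as the fitted log2 difference D300 minus D0 in Ccl19-high cells minus that in the others. Igfbp2 had +6.45 (adjusted p = 0.000192) and stayed called without any single age. The acinar genes Try4 (+5.15), Ctrb1 (+4.72), Try5 (+4.70), Clps (+4.42) and Prss2 (+4.31) were also positive. Ctrb1 stood at 398 CPM at D0, 257 at D24 and 0 to 1.49 at the other ages in Ccl19-high cells, and at 2487, 249 and 0 to 1.94 CPM in the others, so the groups lay farthest apart at D0. The calls of all 5 were lost without D0, and those of 4 also without D24, where Try4 could not be fitted. Clps was detected in 87.0% of Ccl19-high cells at D0 and 72.5% at D24, and in 58.7% and 58.4% of endothelial cells.

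The differences were negative for Fn1 (-2.82), C4b (-2.50) and Tnfaip3 (-2.21). All 3 calls were lost without D0.

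A further 98 deposited cells met the Ccl19 rule but not the filter on detected genes and mitochondrial transcripts, namely 9, 23, 10, 47 and 9 from D0 to D300. They entered no comparison above.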

How the results depend on the processing

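No paired analysis was possible because the cell columns carry no replicate number; the slope difference was blocked by age, which pairs the cell groups of 1 pool and not replicates. The shares of stromal cells moved with the rule itself. With a limit of 5 Ccl19 UMIs they were 16.6, 13.1, 22.2 and 17.3% from D10 to D300, and with a limit of 20 they were 1.21, 6.01, 5.12, 6.89 and 1.84% from D0 to D300. The limit scaled to depth gave 8.80% at D10, no filter on cells gave 9.91% at D56, and thinned cells gave 16.0% at D56 and 10.8% at D300. Without cells that had Cdh5, Ptprc or Rgs5 UMIs the shares were 9.19, 6.14, 9.31 and 5.64% from D10 to D300.

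Against other stromal cells, the limit of 5 left 23 genes higher, no minimum level gave 62 higher and 713 lower, a fold of 1.5 gave 97 and 278, and leaving out single ages gave 39 to 55 and 157 to 230. The age slope gave 66 genes that rose and 23 that fell with the limit of 20, 271 and 163 with the limit of 5, 209 rises with DESeq2, 85 and 45 with Xist-positive cells alone at D10, 46 and 20 for early against adult ages (a contrast in which Tnfsf13b, Eln, Glycam1, Ltc4s and Itm2a were not called), 311 and 206 without the filter on low counts, and 36 and 22 without possible doublets. Leaving out single ages gave 14 to 217 rises and 6 to 94 falls. The slope difference gave 7 positive and 15 negative genes with DESeq2 (which gave no adjusted p for 7 of 11 named genes, Igfbp2 among them), 30 and 27 without the filter, and 33 and 57 against cells with 1 to 9 Ccl19 UMIs only, with 10 to 35 and 2 to 57 when single ages were left out. With TMM scaling the levels relative to D56 were 0.129 at D0, 0.499 at D10 and 0.839 at D24 for Ccl21a, 1.55 at D10 for Il7, and 0.948 at D10 for Grem1, which turned its direction. The difference of Clps ranged from -6.97 without D0 to 7.07 without D24 and that of Try5 from -0.12 without D24 to 8.38 without D0, so both turned as well. With pools at 0 set to 3 counts, chosen after seeing the data, 41 genes were higher and 126 lower, and the medians over ages of Igf2 (0.24) and Prss35 (1.88, log2) took a positive sign that the floor itself sets. Fewer pools or genes are part of the ages left out and of the filters; for the other settings the cause was not tested. Over all named genes, 460 values of the slope kept their call and 187 lost it, 72 of the slope difference kept it, 17 lost it and 2 turned, and 481 level differences kept it, 34 lost it and 2 turned. The 54 cells at D0 (476948 UMIs) limit the precision of everything set against D0.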

Other observations

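A few gene models set the D56 pool apart in Ccl19-high cells and in other stromal cells alike. Gm8797 was at 871 CPM at D56 and at 20.8 to 91.4 CPM at the other ages in Ccl19-high cells, and at 985 against 31.3 to 84.1 CPM in the others. Rps2-ps6 was at 24.5 against 0 to 4.15 CPM and Gm28727 at 14.2 against 0 to 2.12 CPM in Ccl19-high cells. Gm42726 went the other way, at 0.395 CPM at D56 against 11.4 to 85.2 CPM. At D56 age and experiment could not be told apart, as stated above, and the cause was not tested.

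Globin transcripts were highest at D300 in other stromal cells. The 7 erythroid markers summed to 56.1 CPM in Ccl19-high cells and 357 CPM in other stromal cells at D300, against 0 to 29.6 and 2.71 to 6.76 CPM at the other ages. In Ccl19-high cells Hba-a1 itself was at 27.5 CPM at D0 and 10.4 CPM at D300. It had a negative slope difference (-6.32, edgeR adjusted p = 0.00575) with its call lost without D0 or D300.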
